A study of Mus musculus with 5 samples.

Results

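The genes described here are 7 members of the inflammatory chemokine system of the mouse spleen: the ligands Ccl3, Ccl4, Ccl5 and Cxcl16 and the receptors Ccr1, Ccr2 and Cxcr6. They were chosen by gene symbol, and all 7 were found among the 32285 genes counted in each library. Single spleen cells of C57/BL6 mice were sequenced 48 h after an intravenous infusion, and the 5 libraries differ in what was infused. The control received saline. The live allogeneic and live isogeneic libraries followed infusion of live spleen cells from Balbc or B6 donors. The apoptotic allogeneic and apoptotic isogeneic libraries followed infusion of apoptotic spleen cells of the same origins. In every group collagenase D and DNAse I freed the cells, and CD45+ cells and dendritic cells were enriched magnetically in separate runs and pooled again at equal numbers, so shares of cells describe this mixture and not the spleen. Each group is 1 library whose number of mice the labels do not state, and infused cells that persisted cannot be told apart from the host's cells in the counts. No difference between libraries therefore has a replicate check, and no test across libraries was possible. Intervals in brackets are exact 95% intervals that cover counting error only.

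Chemokines are small secreted proteins that bind G protein-coupled receptors on leukocytes and draw cells along their gradients. CCL3 and CCL5 bind CCR1, and CCR2 is the receptor through which CCL2 and its relatives recruit monocytes. CXCL16 is made as a membrane-bound protein that metalloproteases can shed, and CXCR6, its receptor, is known from effector, tissue-resident and innate-like T cells. Activated lymphoid cells, granulocytes and dendritic cells (DCs) of the spleen are known sources of such ligands.

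All 4 ligand genes lie on chromosome 11 and all 3 receptor genes on chromosome 9 of the GRCm38 assembly. Ccl3 (ENSMUSG00000000982, chr11:83647844-83649355, minus strand) and Ccl4 (ENSMUSG00000018930, chr11:83662584-83664683, plus strand) are neighbours, 13228 bases apart with 0 annotated genes between them. Ccl5 (ENSMUSG00000035042) spans chr11:83525778-83530518 on the minus strand, and Cxcl16 (ENSMUSG00000018920) spans chr11:70453983-70459984 on the minus strand. The receptor genes are Cxcr6 (ENSMUSG00000048521, chr9:123806475-123811760, plus strand), Ccr1 (ENSMUSG00000025804, chr9:123962124-123968692, minus strand) and Ccr2 (ENSMUSG00000049103, chr9:124101950-124113557, plus strand). Cxcr6 lies within Fyco1, and 552 bases of Cxcl16 overlap Zmynd15, in both cases on the opposite strand. Reads of 3′ libraries of this kind carry strand, so the overlap does not by itself mix the counts.

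The promoters below are shown because the order of populations differed between these genes, although their cells overlap: Ccl3 was highest in basophil-like and then NK-like cells, Ccr1 in neutrophil-like and basophil-like cells, and Ccr2 in classical monocyte-like cells, then NK-like cells and 1 DC cluster. They are the RefSeq windows of build GRCm38.p6, from 250 bases before to 50 bases after the start of the gene as RefSeq gives it, written 5′ to 3′ along the gene at chr11:83649329-83649628 (minus strand), chr9:123968643-123968942 (minus strand) and chr9:124101933-124102232 (plus strand). RefSeq windows were used for 4 of the 7 genes.
Ccl3 promoter: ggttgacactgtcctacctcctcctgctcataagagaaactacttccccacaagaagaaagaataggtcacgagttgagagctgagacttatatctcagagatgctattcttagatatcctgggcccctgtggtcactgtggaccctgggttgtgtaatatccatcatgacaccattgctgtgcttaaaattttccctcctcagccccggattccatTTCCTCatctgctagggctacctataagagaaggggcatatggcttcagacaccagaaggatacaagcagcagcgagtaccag
Ccr1 promoter: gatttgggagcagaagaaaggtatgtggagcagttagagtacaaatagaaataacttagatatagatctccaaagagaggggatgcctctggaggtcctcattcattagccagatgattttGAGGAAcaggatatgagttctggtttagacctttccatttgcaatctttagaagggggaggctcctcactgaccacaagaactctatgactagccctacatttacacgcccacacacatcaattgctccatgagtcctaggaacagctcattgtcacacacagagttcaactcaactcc
Ccr2 promoter: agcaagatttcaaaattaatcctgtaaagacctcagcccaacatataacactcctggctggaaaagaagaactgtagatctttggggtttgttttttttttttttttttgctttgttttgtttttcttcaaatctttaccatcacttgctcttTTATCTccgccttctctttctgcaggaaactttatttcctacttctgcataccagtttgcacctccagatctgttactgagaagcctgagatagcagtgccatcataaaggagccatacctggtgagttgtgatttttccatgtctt
Capitals mark the matches found when both strands were searched for 5 motifs. These were TATAAA for the core promoter box, GGG with any 3 bases before TTCC for NF-kappaB, TGANTCA for AP-1, AGATAA for the GATA family and GAGGAA for the ETS family. Ccl3 held GAGGAA on the reverse strand 33 bases before the start, a motif present in 28.3% of the 27025 promoters of the same table. Ccr1 held GAGGAA on the forward strand 129 bases before the start. Ccr2 held AGATAA on the reverse strand 97 bases before the start, a motif present in 11.4% of promoters. The Cxcr6 window (chr9:123806227-123806526, plus strand) held none of the 5. TATAAA, the NF-kappaB consensus and TGANTCA stand in 14.2%, 5.52% and 7.93% of promoters and in none of the 4 windows. Such a match describes letters and does not show that a factor binds there.

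The libraries held between 12742889 and 32641733 UMIs (unique molecular identifiers, which count captured RNA molecules). A barcode counted as a cell from 1000 UMIs and 500 genes on if mitochondrial UMIs made up no more than 10%. After 135 called doublets were left out, this gave 2894 cells for saline, 1185 and 3680 for the live allogeneic and isogeneic libraries and 2114 and 6263 for the apoptotic ones, 16136 in all. The doublet caller marked 0.084% to 1.83% of cells in a library, so doublets remain in unknown number, and 33 barcodes occur in more than 1 library. Median UMIs per cell ran from 2267 in apoptotic isogeneic to 4974 in live allogeneic. The cells fell into 31 clusters, clustered without the 7 genes and joined by marker genes into 24 populations. Conventional DC markers of type 2 were spread over clusters that also carried markers of other classes among their leading genes, so these are given by number: cluster 2 (led by Ffar2, Ppp1r14a and Cyp4f16, 13 of 17 type 2 DC markers) and cluster 13 (led by Cd209a, Wfdc17 and Ms4a6c, 12 of 17). Cluster 11, led by Trdc, Il2rb and Cd160, carried markers of T and NK cells together and was not named either. Cluster 15, led by Nfkbid, Egr3 and Irf4, and cluster 20, led by Coch, Cxcl12 and Npnt, also keep their numbers. A level below is the summed UMIs of a gene in a population per 1000000 UMIs of that population (CPM). Where 5 values follow each other, saline comes first, then the live pair and then the apoptotic pair, each with allogeneic ahead of isogeneic. In the barcodes of at most 100 UMIs, which hold free RNA, Ccl3 ran from 16.8 to 43.2 CPM over the 4 libraries whose files hold them, Ccl4 from 22.6 to 74.8, Ccl5 from 353 to 789, Cxcl16 from 29.1 to 57.1, Ccr1 from 4.76 to 6.47, Ccr2 from 17.98 to 32.1 and Cxcr6 from 2.16 to 11.2.

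**Figure D1:**
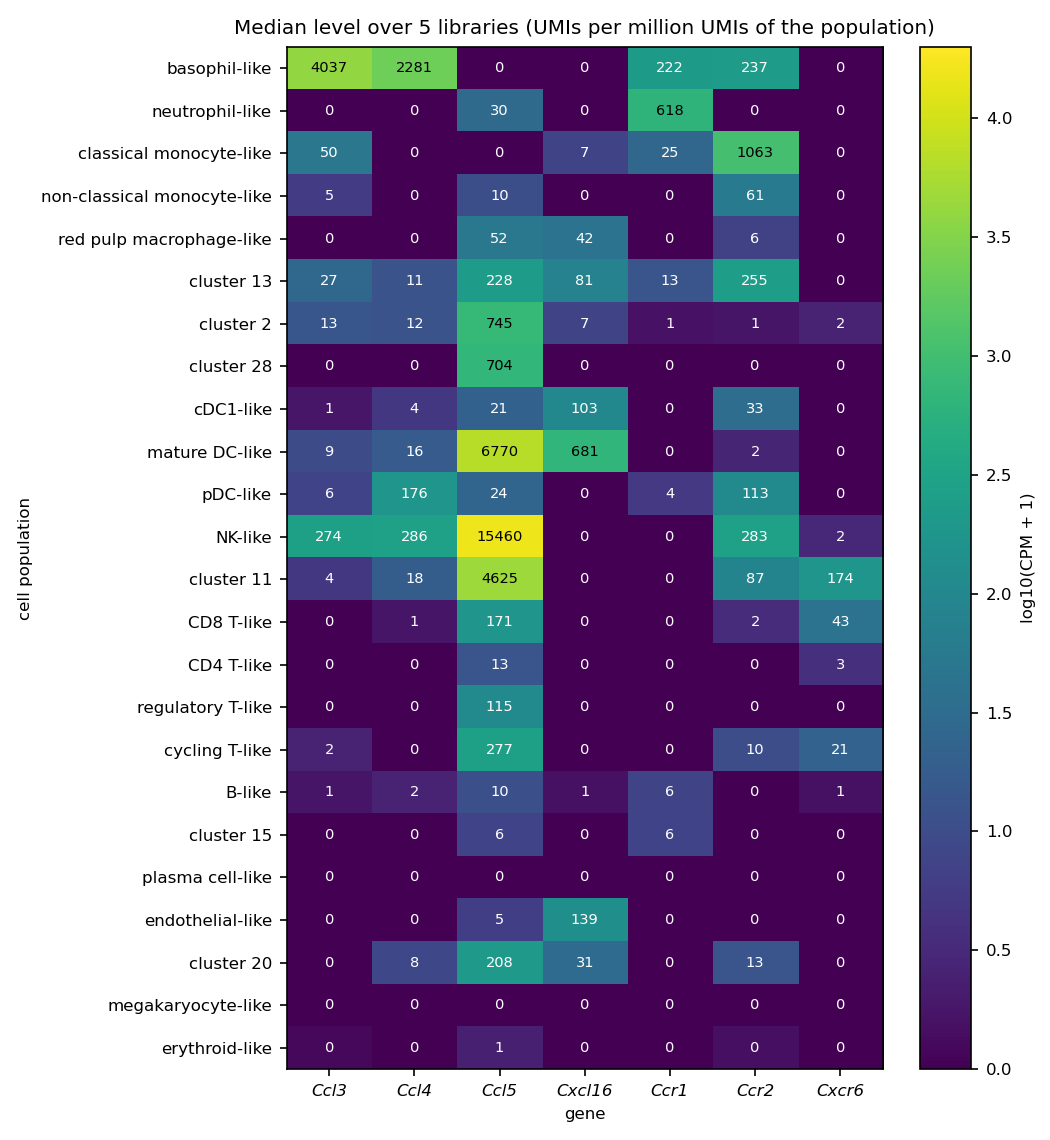
Level of each of the 7 genes in 24 populations of spleen cells, as the median over 5 libraries of the UMIs per 1000000 (CPM, log colour scale). Ccl3 and Ccl4 peaked in basophil-like cells (4037 and 2281 CPM), Ccl5 in NK-like cells (15460), Cxcl16 in mature DC-like cells (681), Ccr1 in neutrophil-like cells (618), Ccr2 in classical monocyte-like cells (1063) and Cxcr6 in cluster 11 (174).

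Ccl3, a ligand of CCR1, was highest in the basophil-like cells, a small population of 49, 16, 20, 17 and 22 cells that carried 9 of 10 basophil and mast cell markers. Its level there was 2279.7 (2034–2547) CPM with saline, 5688 (5164–6250) with live allogeneic, 4873 (4353–5437) with live isogeneic, 4037 (3497–4637) with apoptotic allogeneic and 1709 (1402–2064) with apoptotic isogeneic cells. The live allogeneic library was the highest and the apoptotic isogeneic library the lowest, and from 81.8% to 95% of the cells held at least 1 UMI of the gene. The NK-like cells came next with 169.6, 183, 339.6, 286 and 274 CPM. There the live isogeneic library was highest, and between 28.9% and 41.5% of NK-like cells held a UMI. Cluster 13 stood between 16.3 and 32.9 CPM and cluster 2 between 5.38 and 62.0. In the live allogeneic library the cluster 2 value rested on 36 UMIs in 5 cells. The classical monocyte-like cells held 56.1 CPM with live isogeneic and 50.2 with apoptotic isogeneic cells, the only libraries with 30 or more such cells. B-like cells stayed at or below 1.26 CPM and cDC1-like cells at or below 1.72, while neutrophil-like, endothelial-like and plasma cell-like cells held 0 UMIs of Ccl3 in all 5 libraries. A count of 0 allows up to 3 UMIs of a population's sum, which is 26.5 to 155.8 CPM in neutrophil-like, 10.7 to 32.9 in endothelial-like and 8.27 to 16.4 in plasma cell-like cells, so depth limits this statement.

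Ccl4, the neighbour of Ccl3 in the genome and likewise an attractant of leukocytes, followed the same order at the top. The basophil-like cells held 1005, 6017, 3624, 2281 and 1266 CPM, again highest in the live allogeneic library and here lowest with saline. In NK-like cells the level was 283, 437, 728, 286 and 257 CPM, and live isogeneic was above the intervals of the other 4. The plasmacytoid DC-like (pDC-like) cells, known as a source of type I interferon, differed widely between libraries, with 15.3, 176, 479, 62.4 and 194 CPM. Saline was the lowest of the 5. The share of pDC-like cells with a UMI was 8.06%, 20.5%, 43.7%, 17.6% and 6.50%, so the apoptotic isogeneic library reached its level through 8 of 123 cells, of which 1 held 65.1% of the UMIs. In the live isogeneic library 1 of the 119 pDC-like cells held 47.2%, and without that cell the level was 255 CPM. Basophil and mast cell markers summed to between 8.32 and 21.4 CPM in pDC-like cells, with Mcpt8, Cpa3 and Fcer1a at 0. NK markers summed to between 3580 and 5276 CPM there, with 3 to 12 of 16 above 0 and the lowest sum in the live isogeneic library, and their part in the Ccl4 level was not tested. In non-classical monocyte-like cells the same list summed to between 2431 and 4152 CPM from 1 to 5 markers, and in NK-like cells to between 21249 and 27301 from all 16. Such a sum can thus rest on 1 marker and does not measure NK cell RNA alone. Cluster 2 held 1.19, 131, 7.92, 37.1 and 11.8 CPM of Ccl4, and in the live allogeneic library 1 cell held 68.4% of its 76 UMIs. Cluster 13 was at 99.95 CPM in the live allogeneic library and between 3.58 and 29.5 in the other 4.

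Ccl5, a ligand of CCR1 and CCR3 that cytotoxic lymphocytes store, was present in every NK-like cell kept. Its level there was 16552 CPM with saline, 13640 with live allogeneic, 10551 with live isogeneic, 15460 with apoptotic allogeneic and 17529 with apoptotic isogeneic cells. The live isogeneic library was the lowest. Among libraries with at least 30 cells of a population, the falling order was NK-like cells, mature DC-like cells, cluster 11 and cluster 2, and the ranges of these neighbours did not overlap. Mature DC-like cells, the migratory DCs marked by Fscn1 and Socs2, held 6474, 3039, 6770.1, 7418 and 8189 CPM, the live allogeneic value coming from 24 cells. Cluster 11 held 4734, 3829, 3946, 4625 and 6125 CPM. Cluster 2 held 816, 257, 479, 745 and 1034 CPM and was lowest in both live libraries. Free RNA of Ccl5 was abundant, and as a background the erythroid-like cells, which should lack the gene, reached 13.6 CPM at most and the B-like cells 31.1 CPM, with UMIs in up to 7.85% and 3.40% of cells. The 13.6 CPM stood in live isogeneic, where erythroid-like cells had a median of 3941 UMIs. In the other libraries that median was 23004 or more and Ccl5 at most 3.55 CPM, and the part of depth in this background was not tested.

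Some populations held Ccl5 in a few cells at high level. CD8 T-like cells held 77.5, 207, 171, 49.5 and 336 CPM, and the tenth of cells with the most Ccl5 carried between 95% and 100% of it in every library. Red pulp macrophage-like cells were at 16.7 CPM with saline, 18.1 with live allogeneic and 52.1 with live isogeneic cells, against 494 with apoptotic allogeneic and 382 with apoptotic isogeneic cells. In the apoptotic allogeneic library 4 of 80 macrophage-like cells held all of it, and in the apoptotic isogeneic library 19 of 86 did. NK markers in these cells summed to between 1048 and 1794 CPM and CD8 T markers to between 278 and 1772 CPM. B cell markers summed to between 403 and 6598 CPM there, from 8 to 14 of 14 markers, against 14087 to 18865 CPM in B-like cells. The part of these lists, and of the lymphocyte RNA they measure, in the Ccl5 level was not tested. The NK sum came from 5 to 10 of 16 markers, and such a sum can rest on 1 marker, as given above. Cluster 13 held 228, 431, 168, 191 and 889 CPM, highest in the apoptotic isogeneic library, where 1 cell held 35.6% of the UMIs.

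Cxcl16, the membrane-bound ligand of CXCR6, was highest in mature DC-like cells in every library. Its levels there were 658, 601, 744, 803 and 681 CPM, a narrow range next to the differences between populations. Endothelial-like cells followed with 203, 91.1, 132, 156 and 139 CPM, of which saline was the highest. The cDC1-like cells, known for cross-presentation to CD8 T cells, held 113, 76.8, 82.8, 112 and 103 CPM, and their range overlapped that of cluster 13 with 76.7, 91.3, 80.6, 98.5 and 71.6 CPM. Red pulp macrophage-like cells lay lower, between 20.9 and 55.2 CPM. Cluster 2 held between 1.70 and 7.83 CPM, so clusters 2 and 13, both with most type 2 DC markers, lay apart in every library for Cxcl16. NK-like cells, cluster 15, plasma cell-like and regulatory T-like cells held 0 UMIs of it in all 5 libraries, which in NK-like cells allows 6.37 to 17.7 CPM, and CD4 T-like and CD8 T-like cells stayed at or below 6.33 CPM.

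**Figure D2:**
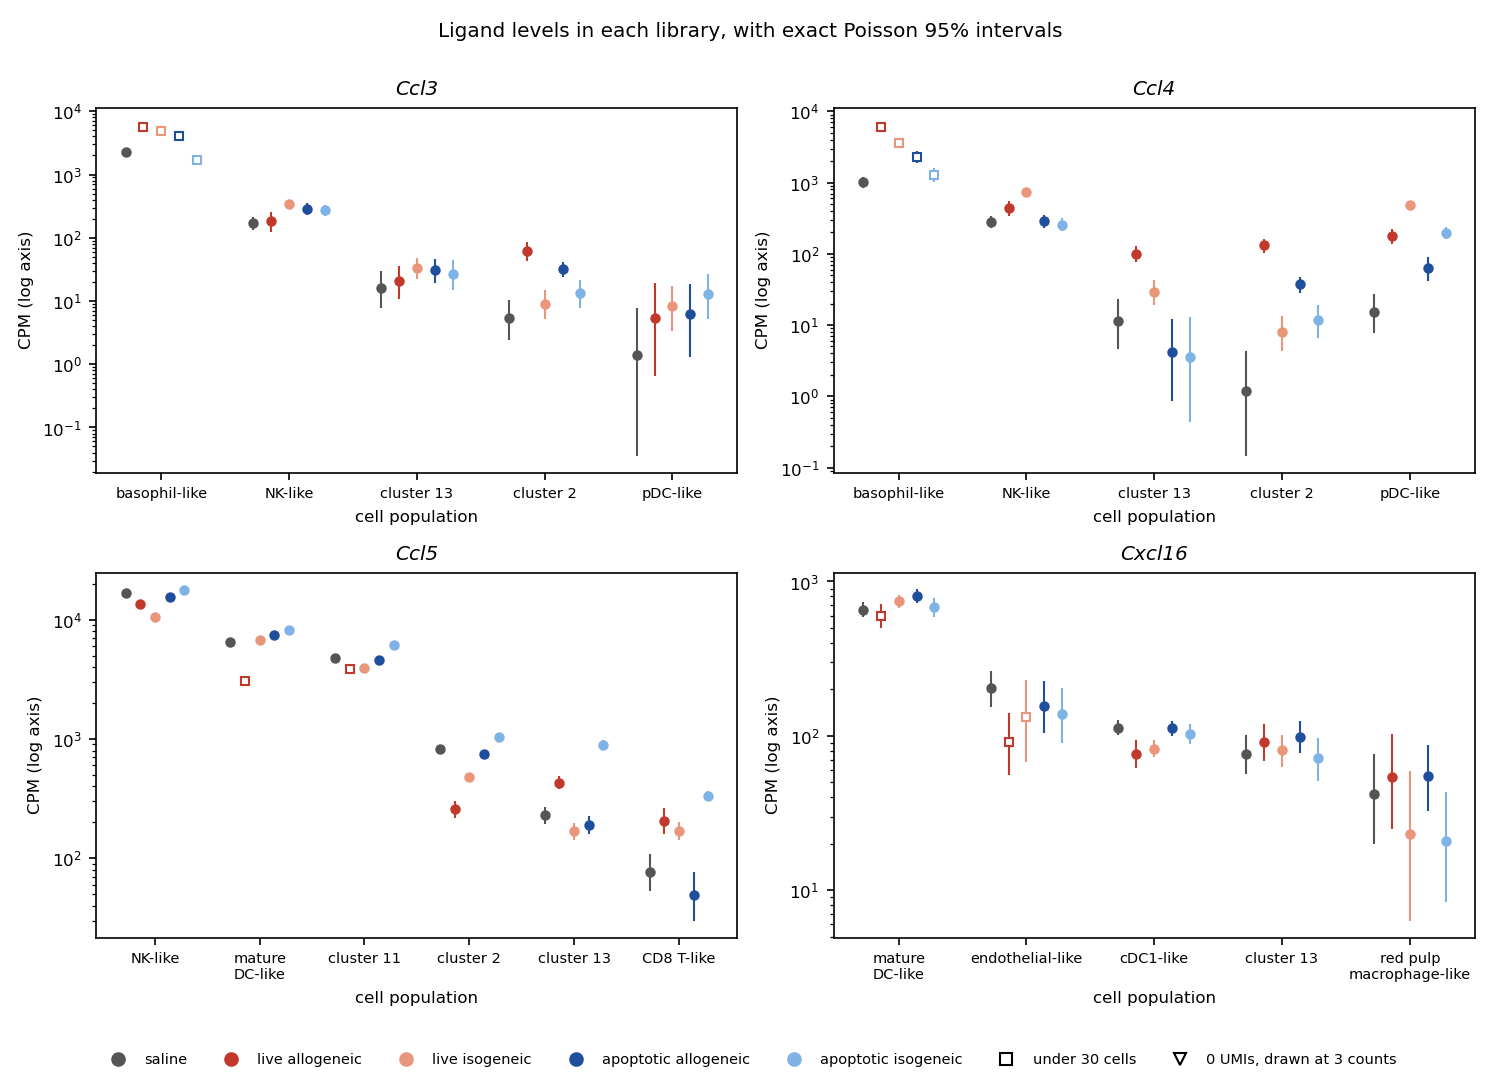
Levels of the ligands Ccl3, Ccl4, Ccl5 and Cxcl16 (CPM, log axis) in their leading populations, 1 point per library with the exact 95% interval of the count, coloured by infusion. For Ccl4 the pDC-like points run from 15.3 CPM with saline to 479 with live isogeneic cells, while the mature DC-like points of Cxcl16 lie between 601 and 803.

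Ccr1, a receptor for CCL3 and CCL5 on myeloid cells, was highest in neutrophil-like and basophil-like cells. The neutrophil-like cells held 571, 1194, 618, 388 and 647 CPM from 13, 18, 36, 17 and 36 cells, and live allogeneic was the highest. In the basophil-like cells the levels were 320, 184, 457, 222 and 127 CPM, and most of the 5 intervals overlapped. Cluster 13 held between 10.2 and 17.2 CPM and cluster 2 at most 1.57. The B-like cells held 9.11, 7.13, 6.50, 5.88 and 4.89 CPM. These low levels came mostly from cluster 4, a B-like cluster led by Cr2, Fcrl5 and S1pr3, in which Ccr1 reached 28.2, 21.9, 18.005, 15.3 and 12.5 CPM, above the free RNA range of 4.76 to 6.47 CPM. NK-like, erythroid-like and non-classical monocyte-like cells held 0 UMIs of Ccr1 in all 5 libraries. That count allows at most 1.44 CPM in erythroid-like and 46.0 CPM in non-classical monocyte-like cells.

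Ccr2, the receptor that lets monocytes leave the bone marrow, was highest in classical monocyte-like cells, at 871, 595, 1122, 1063 and 1067 CPM. Of these libraries, live isogeneic with 43 cells and apoptotic isogeneic with 46 had at least 30 such cells, and the other 3 had 8, 3 and 9. NK-like cells held 281, 283, 379.9, 234 and 369 CPM and cluster 13 held 251, 319, 255, 268 and 234 CPM, ranges that overlapped. Cluster 2 held at most 5.17 CPM, so Ccr2 also lay apart between clusters 2 and 13 in every library. The pDC-like cells held 160.1, 26.7, 113, 81.1 and 236 CPM, and both allogeneic libraries were below the 3 others. Classical monocyte markers were summed in pDC-like cells as well. The sum was 10803 CPM in the live allogeneic library and between 5896 and 6928 in the other 4, so it did not fall with Ccr2, and its part in the result was not tested. Cluster 11 held 113, 51.7, 98.0, 62.4 and 86.6 CPM. The cDC1-like cells held between 26.2 and 44.7 CPM, from cluster 8 (led by Xcr1, Ppt1 and Rab7b) with 33.0, 47.2, 37.3, 32.7 and 49.3 CPM and cluster 23 (led by Ifi205, Kif23 and Tubb2a) with 16.4, 42.1, 34.6, 6.40 and 20.7 CPM, whereas the shallower cluster 17 held 1 UMI over its 5 libraries. B-like cells, in which at most 0.208% of cells held a UMI, give the background.

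Cxcr6, the receptor of CXCL16, was found mainly in cluster 11 and in CD8 T-like cells. Cluster 11 held 201, 79.96, 136, 174 and 240.1 CPM, with a UMI in 34.4%, 27.6%, 29.2%, 34.0% and 35.2% of its cells. The live allogeneic library was lowest, but the share of its 29 cells with a UMI lay near the others. CD8 T-like cells followed with 43.6, 47.1, 29.7, 36.5 and 42.7 CPM, below cluster 11 in each library. CD4 T-like cells stayed at or below 4.22 CPM, and basophil-like, mature DC-like, cluster 15, plasma cell-like and non-classical monocyte-like cells held 0 UMIs, which allows 5.42 to 15.02 CPM in mature DC-like cells. At most 0.299% of B-like cells held a UMI of Cxcr6.

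Cluster 11 held the receptor of CXCL16 together with Ccl5 and Ccr2, as did the cycling T-like cells, of which a library had 2 to 19. Of the 493 cells of cluster 11, 164 held a UMI of Cxcr6. Ccr2 was found in 34.8% of these and in 10.6% of the others, and it was the more frequent in Cxcr6-bearing cells in each of the 5 libraries. Zbtb16, the transcription factor of innate-like T cells, was found in 24.4% against 5.47%, and Klrb1c, which encodes NK1.1, in 36.0% against 17.6%. Trdc, the first leading gene of the cluster and on the same marker list, went the other way with 9.15% against 17.3%. In live isogeneic alone Trdc was the more frequent in Cxcr6-bearing cells, at 19.4% against 12%. Cd8b1, the beta chain of the CD8 co-receptor, was less frequent in Cxcr6-bearing cells with 15.2% against 36.8%, and Cd4 stood at 20.1% against 10.3%. The Cxcr6-bearing cells had a median of 3286.5 UMIs and the others 3597. Their median was the lower in 4 libraries and the higher in live isogeneic, at 5149 against 4795, and the part of depth was not tested.

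Ccl3 and Ccl4 also occurred in the same cells. Of basophil-like cells with Ccl3, 59.1%, 85.7%, 89.5%, 75.0% and 72.2% also held Ccl4. Of all basophil-like cells of a library, with or without Ccl3, from 55.1% to 85% held it. Among NK-like cells the share with Ccl4 was 34.1% with Ccl3 and 24.8% without it for saline, 58.3% and 21.1% for live allogeneic, 72.2% and 36.8% for live isogeneic, 45.5% and 28% for apoptotic allogeneic, and 49.0% and 18.9% for apoptotic isogeneic. The share was the higher in Ccl3-bearing NK-like cells in all 5 libraries. The intervals of both shares did not overlap in live isogeneic (58.4%–83.5% against 26.1%–48.7%) and apoptotic isogeneic (34.4%–63.7% against 12.1%–27.5%). These shares were counted without thinning. Of all NK-like cells, 28.9% to 41.5% held Ccl3, and 14.8% to 22.9% did with each cell thinned to 1000 UMIs. For Ccl4 these ranges were 27.5% to 51.5% and 15.5% to 34.6%. The part of depth in the higher share of Ccl3-bearing cells was not tested.

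Counted as a share of all UMIs of each gene in the kept cells, most of the RNA of each ligand came from few cells. Basophil-like cells were 1.69%, 1.35%, 0.543%, 0.804% and 0.351% of the cells and held 73.1%, 80.6%, 55.4%, 52.9% and 39.1% of the Ccl3 UMIs. NK-like cells, between 2.56% and 4.91% of the cells, held from 38.1% to 51.2% of the Ccl5 UMIs. Mature DC-like cells held 25.8%, 13.5%, 29.9%, 31.0% and 15.4% of the Ccl5 UMIs, and cluster 11 held 8.60%, 18.05%, 16.7%, 9.92% and 29.2%. NK-like cells were thus the first source in every library, and cluster 11 was ahead of mature DC-like cells in live allogeneic and apoptotic isogeneic. Cxcl16 was split between mature DC-like cells, with 37.6% to 53.2%, and cDC1-like cells, with 29.1% to 40.6%. Ccl4 had no single main source, since basophil-like cells held between 20.6% and 58.0% of it, and pDC-like cells held 34.7% in live isogeneic and 29.4% in apoptotic isogeneic but at most 9.40% in the other 3. Of the receptors, cluster 13 held from 15.5% to 51.8% of the Ccr2 UMIs and classical monocyte-like cells from 3.64% to 32.4%. Cluster 11 held from 48.6% to 65.1% of the Cxcr6 UMIs. Ccr1 came from neutrophil-like cells (11.2% to 51.1%), basophil-like cells (7.08% to 44.9%) and B-like cells (18.2% to 31.0%). Both the number of cells sampled and the enrichment steps set these shares.

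**Figure D3:**
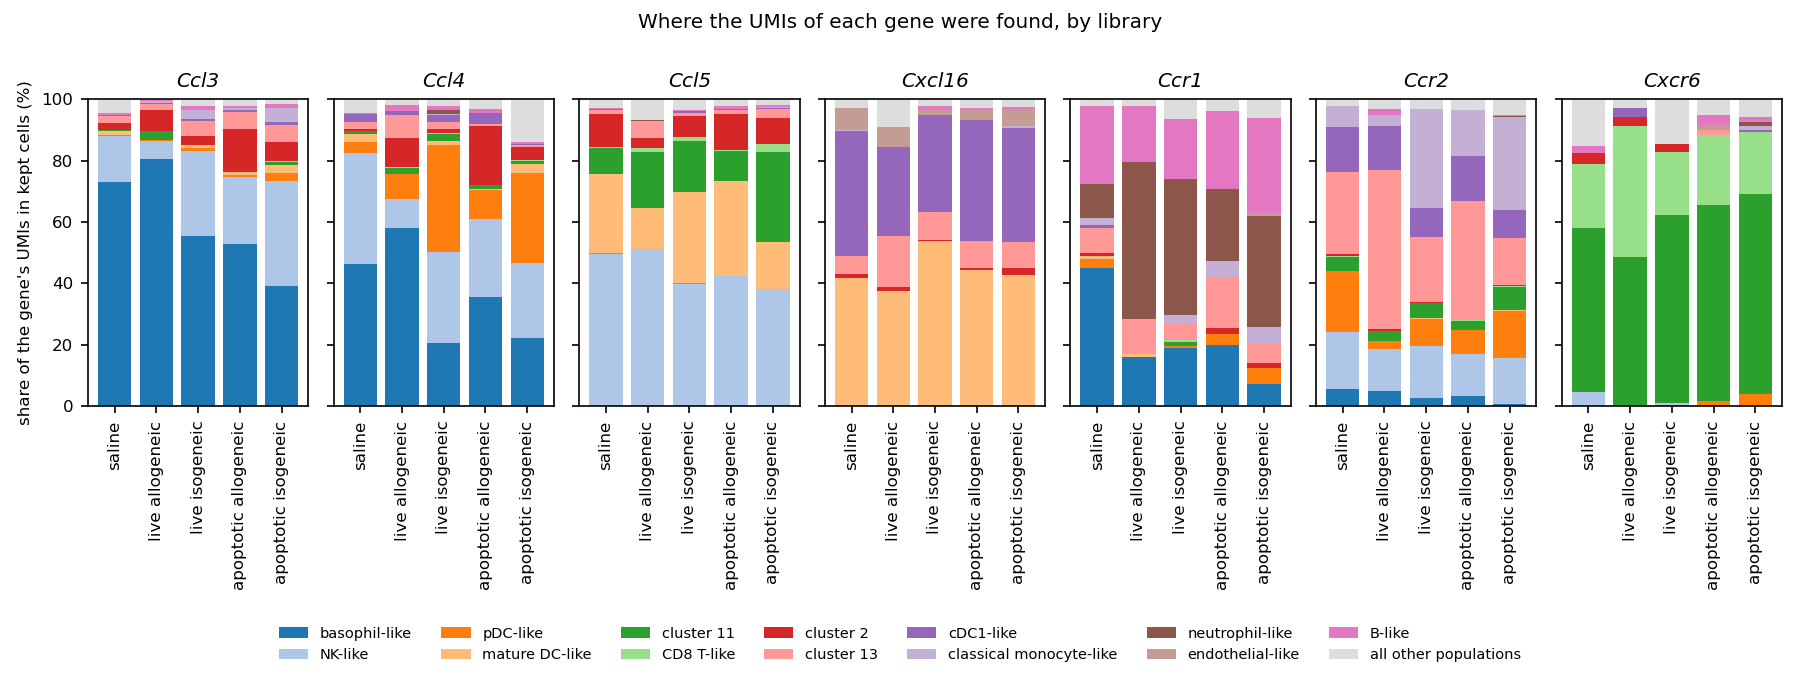
Share of all UMIs of each gene in the kept cells (percent, vertical axis) that came from each population, as 1 stacked bar per library for each of the 7 genes. Basophil-like cells hold between 39.1% and 80.6% of Ccl3, and cluster 11 holds between 48.6% and 65.1% of Cxcr6.

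The study sets allogeneic against isogeneic infusion with cells in the same state. A gene in a population was called higher or lower when its log2(CPM + 10) differed by more than 1.5-fold, both libraries had at least 30 cells of the population, and both sums together held at least 20 UMIs. These calls describe pairs of libraries. For live cells 11 populations could be compared. Of 77 pairs of gene and population 25 had enough UMIs, of which 4 were higher in the allogeneic library, 9 lower and 12 between the limits. Over all genes in the same populations 6.08% were higher and 10.5% lower. The median of the 25 log2 differences was -0.04, and the medians over all genes lay between -0.15 and 0.05 by population. For apoptotic cells 15 populations could be compared, and of 32 measured pairs 5 were higher, 10 lower and 17 between. Over all genes 4.62% were higher and 5.2% lower. The median of the 32 differences was -0.16, against -0.06 to 0.01 over all genes. The 7 genes were chosen with earlier results of these libraries known, so their excess over these shares is no evidence of a response of the chemokine system.

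In the live pair the 4 higher values lay in clusters 2 and 13. In cluster 2, Ccl3 was at 62.0 CPM with allogeneic and 9.05 with isogeneic cells, 6.86-fold (3.71–13.2), and Ccl4 at 131 and 7.92, 16.5-fold (9.28–31.7). Both rested on few cells. Without the cell with most UMIs in each library, a setting chosen after the data were seen, the log2 difference went from 1.92 to 1.00 for Ccl3 and from 2.98 to 1.67 for Ccl4. Markers of basophils and mast cells summed to 148 CPM in cluster 2 of the live allogeneic library and 228 in the live isogeneic library, from 2 and 4 of 10 markers, with Mcpt8, Cpa3 and Fcer1a at 0 in both. Those of NK cells summed to 1711 and 1396 CPM, from 5 and 14 of 16 markers, and such an NK sum can rest on 1 marker, as given above. The part of either marker list in these values was not tested. In cluster 13, Ccl4 was at 99.95 and 29.5 CPM, 3.39-fold (2.10–5.61), and Ccl5 at 431 and 168, 2.57-fold (2.08–3.16). Cluster 2 went the other way for Ccl5, with 257 and 479 CPM, 0.54-fold (0.45–0.64).

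The 9 values called lower in live allogeneic included Ccl3 and Ccl4 in NK-like cells and Ccl4, Ccl5 and Ccr2 in pDC-like cells. NK-like cells held 183 against 339.6 CPM of Ccl3, 0.54-fold (0.35–0.80), and 437 against 728 CPM of Ccl4, 0.60-fold (0.46–0.77). These values came from 31 live allogeneic and 130 live isogeneic cells. In every library the tenth of NK-like cells with the most UMIs held at least 58.9% of Ccl3 and at least 59.8% of Ccl4. In pDC-like cells Ccl4 was at 176 and 479 CPM, 0.37-fold (0.28–0.48), and Ccr2 at 26.7 and 113 CPM, 0.24-fold (0.11–0.46). Ccl5 was also lower in pDC-like cells, cDC1-like cells, B-like cells and erythroid-like cells, on 1, 2, 3 and 0 UMIs in the live allogeneic library against 49, 75, 49 and 84 in the live isogeneic library. In barcodes of at most 100 UMIs the live isogeneic library held 5500146 UMIs and the live allogeneic library 1390098, and Ccl5 made up 353 CPM of them in the former and 428 CPM in the latter. The part of free RNA in these 4 values was not tested. The B-like cells of both libraries also lay in different clusters, since cluster 9, led by Ifit3, made up 244 of 481 in live allogeneic and 65 of 1351 in live isogeneic. Ccr2 in cluster 13 and cDC1-like cells and Cxcl16 in cDC1-like cells and cluster 13 stayed between the limits.

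In the apoptotic pair, the plasmacytoid cells were again lower with allogeneic cells. Ccl4 was at 62.4 and 194 CPM, 0.32-fold (0.21–0.49), and Ccr2 at 81.1 and 236 CPM, 0.34-fold (0.23–0.49). Without the cell with most UMIs in each library the log2 difference went from -1.50 to -0.58 for Ccl4, which is no longer past the limit, and from -1.44 to -1.52 for Ccr2. Ccr2 was also lower in NK-like cells, at 234 and 369 CPM, 0.63-fold (0.46–0.86), and in cDC1-like cells, at 26.2 and 44.7 CPM, 0.59-fold (0.42–0.82). Cluster 2 was higher, with Ccl3 at 31.6 and 13.3 CPM, 2.38-fold (1.35–4.38), and Ccl4 at 37.1 and 11.8 CPM, 3.16-fold (1.77–5.98).

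Ccl5 differed in both directions between the apoptotic libraries. CD8 T-like cells held 49.5 against 336 CPM, 0.15-fold (0.09–0.23), and cluster 13 held 191 against 889 CPM, 0.22-fold (0.18–0.26). These intervals do not cover how the UMIs were spread over cells. The tenth of cells with the most Ccl5 carried at least 95.5% of it in CD8 T-like cells and at least 50% in cluster 13 in every library. Without the top cell of each library the log2 differences went from -2.54 to -2.86 in CD8 T-like cells and from -2.16 to -1.64 in cluster 13. B-like cells held 31.1 against 9.91 CPM, 3.13-fold (2.23–4.40), but 1 apoptotic allogeneic cell carried 75.7% of the UMIs, and without the top cell of each library the log2 difference was -0.01 in place of 1.04. CD4 T-like cells held 31.2 against 12.6 CPM on 11 and 17 UMIs, and their log2 difference went from 0.87 to -0.19 in the same way. Cluster 15 held 0 UMIs of Ccl4 and Ccl5 in 30 apoptotic allogeneic cells against 39 and 31 UMIs in 156 apoptotic isogeneic cells, and too few remained to compare without the top cell. Cxcl16 in red pulp macrophage-like cells was at 55.2 and 20.9 CPM on 18 and 7 UMIs, 2.64-fold (1.05–7.49).

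**Figure D4:**
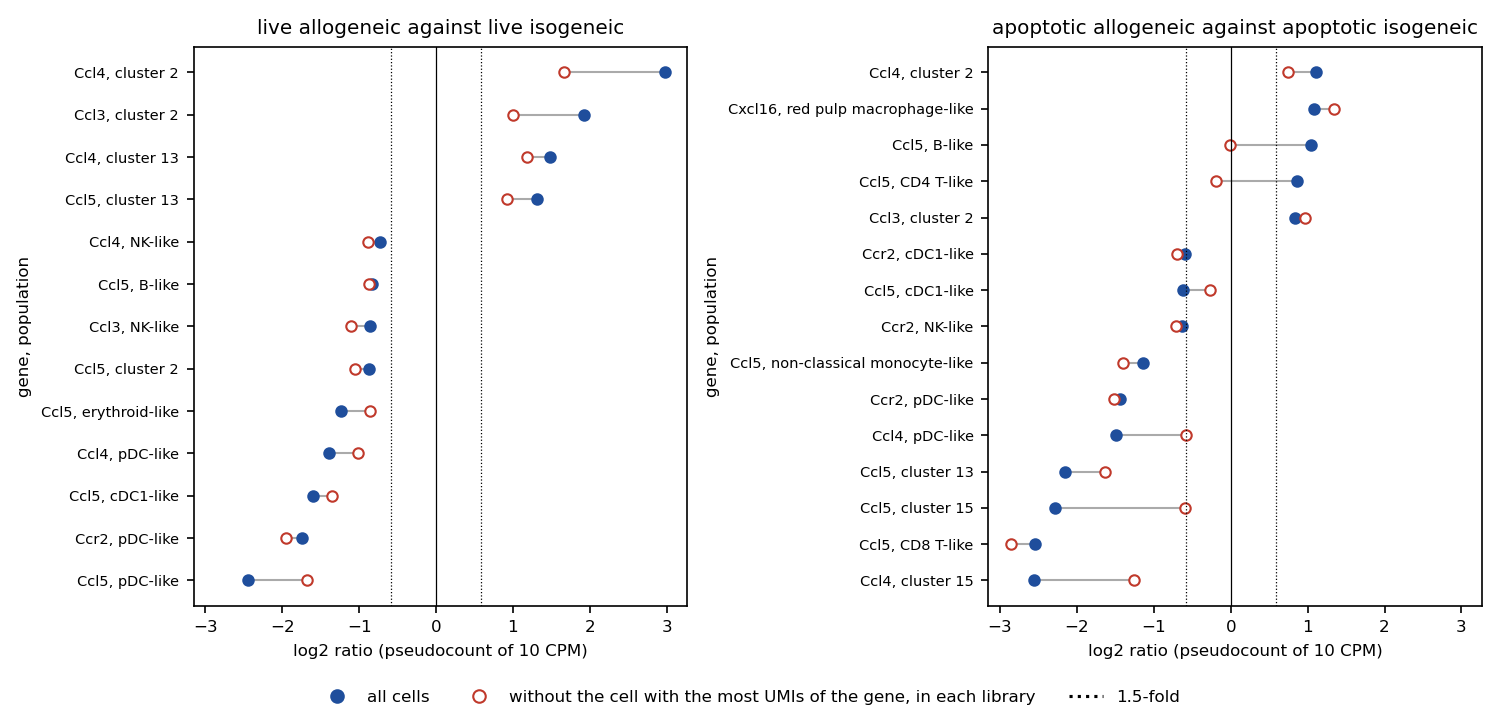
Difference in log2(CPM + 10), allogeneic minus isogeneic, for live and apoptotic infusions, with dotted lines at 1.5-fold. Only genes and populations called past 1.5-fold in that pair are drawn. Filled points hold all cells, and open points leave out the cell with the most UMIs of the gene in each library. With all cells, Ccl4 in cluster 2 lies at 2.98 in the live and 1.12 in the apoptotic pair, and Ccr2 in pDC-like cells at -1.74 and -1.44.

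Set beside both state pairs, the differences called in the same direction in each were Ccl3 and Ccl4 higher in cluster 2, Ccl4 and Ccr2 lower in pDC-like cells, and Ccl5 lower in cDC1-like cells. How often all genes were called alike in both pairs was not counted, so this list is no evidence of a repeated result. Ccl4 in pDC-like cells was no longer past the limit in the apoptotic pair without the top cell of each library, at -0.58. Ccl5 in cDC1-like cells rested on 2 and 75 UMIs in the live pair and 53 and 60 in the apoptotic pair. In the apoptotic pair its log2 difference went from -0.61 to -0.27 without the top cell of each library, which is no longer past the limit, and to 2.07 under a stricter cell filter. Ccl5 in cluster 13 and in B-like cells was called in opposite directions. NK-like cells differed in Ccl3 and Ccl4 in the live pair, while in the apoptotic pair the folds were 1.04 (0.77–1.42) and 1.12 (0.82–1.52). Whether the live and apoptotic pairs differ from each other was not tested.

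The saline library gives the level without infused cells, and it is shared by the 4 comparisons below, which are therefore not independent. Of the measured pairs, live allogeneic had 7 higher and 5 lower than saline of 22, against 6.84% and 10.2% over all genes. Live isogeneic had 9 higher and 2 lower of 31, against 6.66% and 5.87%. Apoptotic allogeneic had 7 higher and 3 lower of 30, against 3.89% and 6.25%, and apoptotic isogeneic 9 higher and 1 lower of 32, against 3.95% and 5.77%. Ccl4 in pDC-like cells was above saline in each of them, 11.5-fold (6.04–24.2) with live allogeneic, 31.3-fold (17.3–63.2) with live isogeneic, 4.07-fold (1.99–9.01) with apoptotic allogeneic and 12.7-fold (6.81–26.2) with apoptotic isogeneic cells. As given above, the cell with most UMIs held a large part of the count in live isogeneic and apoptotic isogeneic. In apoptotic isogeneic the share of pDC-like cells with a UMI, 6.50%, was the lowest of all libraries, saline included. Ccl3 in NK-like cells was 2.00-fold (1.49–2.72) with live isogeneic, 1.69-fold (1.20–2.38) with apoptotic allogeneic and 1.62-fold (1.16–2.25) with apoptotic isogeneic cells. Ccl4 in NK-like cells was 2.57-fold (2.06–3.22) with live isogeneic and 1.54-fold (1.13–2.09) with live allogeneic cells. Ccl5 in NK-like cells was 0.64-fold (0.61–0.66) with live isogeneic cells. Ccr2 in pDC-like cells was 0.17-fold (0.08–0.32) with live allogeneic and 0.51-fold (0.34–0.73) with apoptotic allogeneic cells. Ccl5 in red pulp macrophage-like cells was 29.6-fold (11.3–109.8) with apoptotic allogeneic and 22.9-fold (8.72–85.2) with apoptotic isogeneic cells, on 4 UMIs in the saline library. At most 22.1% of these cells held a UMI of Ccl5 in any library. As given above, a few cells held all of it in apoptotic allogeneic, which the interval of the fold does not cover.

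The other genes of the system were taken from lists by role. Of the other ligands, Ccl6 and Ccl9 were also highest in basophil-like cells, at 4683 and 2367 CPM. These 2 values come from the saline library alone, the only library with at least 30 such cells. The lymphotactin gene Xcl1 was at a median of 295 CPM over 5 libraries in NK-like cells. The CCR2 ligand genes Ccl2, Ccl7, Ccl8 and Ccl12 gave 40, 2, 4 and 2 UMIs in all kept cells, so the ligands of the receptor on monocyte-like cells were barely detected at this depth. Ccr3, a CCL5 receptor, was highest in red pulp macrophage-like cells (445 CPM). Cxcr2 marked neutrophil-like cells (1284 CPM), Cx3cr1 non-classical monocyte-like cells (782 CPM) and Cxcr3 cluster 11 (102 CPM). Of the proteases that shed CXCL16, Adam10 was highest in endothelial-like cells (157 CPM) and Adam17 in non-classical monocyte-like cells (106 CPM).

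In the live pair the other ligands had 10 of 21 measured pairs higher with allogeneic cells and 5 lower, and the other receptors 3 of 13 higher and 4 lower. Cxcl9 and Cxcl10, the interferon-induced ligands of CXCR3, accounted for 7 of the 10: both in cluster 2, cluster 13 and red pulp macrophage-like cells, and Cxcl10 in B-like cells. In cDC1-like cells Cxcl10 was lower, at 13.2 and 47.5 CPM, 0.28-fold. Cxcl9 in cluster 13 was at 1155 and 210 CPM, 5.50-fold. Cxcl10 in cluster 2 was at 81.0 and 1.13 CPM. Xcl1 in NK-like cells was at 295 and 490 CPM, 0.60-fold, beside the lower Ccl3 and Ccl4 there. Cxcr3 in pDC-like cells was at 13.4 and 38.3 CPM. Beside these counts stand the shares over all genes in the same populations, 6.08% higher and 10.5% lower. The atypical receptors had 0 of 7 in either direction, the shedding list 3 of 43 higher and 9 lower, the receptor signalling list 1 of 107 higher and 25 lower, and the regulators 11 of 114 higher and 20 lower. Mmp9 in cluster 2 (55.1 and 11.9 CPM) and Tnf in cluster 13 (39.6 and 5.67 CPM) were among those higher, and Adam10 in B-like cells (38.3 and 63.7 CPM) among those lower.

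In the apoptotic pair these lists together had 31 of 396 measured pairs higher and 19 lower, against 28 and 63 of 305 in the live pair. The other ligands had 4 of 22 higher and 3 lower, the other receptors 1 of 17 higher and 2 lower, the atypical receptors 0 of 7, the shedding list 3 of 57 higher and 0 lower, the signalling list 11 of 140 higher and 5 lower and the regulators 12 of 153 higher and 9 lower, beside 4.62% and 5.2% over all genes. Cxcl9 in cluster 13 was here lower with allogeneic cells, at 45.8 and 143 CPM, 0.32-fold, and also in red pulp macrophage-like cells, at 61.3 and 331 CPM, 0.19-fold. Cxcl10 in cluster 13 was lower as well, at 8.33 and 50.1 CPM. Cxcl9 was higher in mature DC-like cells, at 43.6 and 13.4 CPM, and Cxcl10 in endothelial-like cells, at 295 and 85.2 CPM.

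The genes whose pattern over the 24 populations was most like that of each gene were found among 11062 genes by Pearson correlation of log2(CPM + 10), the mean of the libraries. For Ccl3 they were Gzmb (0.90), Cma1 (0.90), Trpm4 (0.84) and Ms4a2 (0.83), and for Ccl4 Cma1 (0.87), Gzmb (0.86), Sytl3 (0.83) and Gpsm1 (0.81). Ccl3 and Ccl4 correlated at 0.90 with each other. Ccl5 was most like Gpc1 (0.86), AW112010 (0.80) and Klrk1 (0.79), and Cxcl16 most like Col27a1, Poglut1 and Nostrin (each 0.88) and Cttnbp2nl (0.87). For the receptors, Ccr1 was most like Hdc (0.96), Cxcr2 (0.95), Lilr4b (0.93) and Osm (0.90), Ccr2 like Padi2 (0.84), Ahnak (0.79), Chst12 (0.79) and Gas7 (0.78), and Cxcr6 like Lcn4 (0.86), Btbd11 (0.86), Fgf13 (0.85) and Podnl1 (0.84). These are descriptions over 24 points that share the same 5 libraries and their depth.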

How the data were processed

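Each library was made with the 10x 3′ v3.1 chemistry and counted with Cell Ranger 4.0 against mm10, per the submitters' processing notes. The deposited files hold UMI counts, whole numbers per gene and barcode with no normalization, per the file headers and values. Of the 5 files, 4 hold 6794880 barcodes each, and the apoptotic allogeneic file holds 2491 barcodes with at least 500 UMIs. Cells were filtered as given above, doublets were called with Scrublet in scanpy 1.11.5 (Python 3.11.15) at 0.8% per 1000 cells, and cells were clustered over all libraries with leidenalg 0.10.2 (2000 variable genes, 30 components, 15 neighbours, resolution 1). Populations were named from marker lists, and genes described are the 7 members, the pathway lists by role and, for each member, the 4 genes of most like pattern with at least 200 UMIs. UMIs were summed per population and library, with exact Poisson intervals for levels and exact binomial intervals for shares and folds, from scipy 1.17.1. Gene positions come from the annotation of the same build, in which 32158 of 32285 gene IDs matched. The members and lists were chosen with earlier results of these data known. The calling rule and the fold intervals were tested on Poisson counts simulated for population sums, which leave out differences between cells. Alternatives covered scaling, thinning, filters, clustering, doublets, the pseudocount and the minimum of UMIs. A ligand of the lists was not analysed here, and some genes that the rules would name are not reported here.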

Additional observations from a re-analysis of the deposited data

Results flagged for a closer look

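Ccl5 in cluster 13 differed in opposite directions between the state pairs: the fold of allogeneic over isogeneic was 2.57 (2.08–3.16) for live and 0.22 (0.18–0.26) for apoptotic infusions. In cluster 13, 1 cell held 36.0% of the Ccl5 UMIs in the live allogeneic library and 35.6% in the apoptotic isogeneic library, and without the top cell of each library the log2 differences were 0.92 and -1.64 in place of 1.31 and -2.16. Both stayed past 1.5-fold.

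Ccl5 in B-like cells also went opposite ways, with a fold of 0.13 (0.03–0.40) for live and 3.13 (2.23–4.40) for apoptotic infusions. Cluster 9, led by Ifit3, made up 244 of 481 B-like cells in live allogeneic and 65 of 1351 in live isogeneic, so the live values come from different clusters in part. Without the top cell of each library the log2 differences were -0.87 and -0.01, so the apoptotic difference was not kept. Whether the live and apoptotic differences differ was not tested in either population, since each group is 1 library.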

How the results depend on the processing

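For each gene the level compared here is the median over libraries with at least 30 cells in its leading population: 2279.7 CPM for Ccl3, 1005 for Ccl4, 15460 for Ccl5, 713 for Cxcl16, 633 for Ccr1, 1094 for Ccr2 and 187 for Cxcr6. Of the levels and counts under the alternatives, 95 stayed and 35 moved. The 95 include all values from leaving out 1 library in turn. Such a value could not move where the library left out had under 30 cells of the population. Scaling without mitochondrial, ribosomal, immunoglobulin and haemoglobin genes gave 2962, 1306, 21564, 971, 762, 1491 and 303 CPM in the same order. The mean of each cell's own CPM gave 2666 for Ccl3, 887 for Ccr1, 1179.7 for Ccr2 and 232 for Cxcr6. With each cell thinned to 1000 UMIs these 4 were 2612, 847, 1051 and 259 CPM, and the live pair had 0 higher and 2 lower of 5 pairs and the apoptotic pair 1 higher and 6 lower of 19. The stricter cell filter gave 234 CPM for Cxcr6, and Ccl3, Ccl4 and Ccr1 had no value, since no library kept 30 basophil-like or neutrophil-like cells. Leiden resolution 2 gave 3138 CPM for Ccl3 and 1365 for Ccl4, and keeping called doublets gave 3138, 1365, 12535 for Ccl5 and 788 for Ccr1. With the members kept among the clustering genes Ccr1 was also 788. With no minimum of UMIs the live pair had 14 lower, and the apoptotic pair 9 higher and 17 lower. With at least 10 cells, an alternative chosen after the data were seen, Ccl3 was 4037 and Ccl4 2281 CPM, and the live pair had 7 higher and 16 lower. Without the cell with most UMIs, chosen likewise, the apoptotic pair had 2 higher, and 9 of 28 called differences were no longer called. The apoptotic log2 difference of Ccl5 reversed to -0.0095 in B-like cells and -0.19 in CD4 T-like cells there, to -0.022 in B-like cells with doublets kept, and under the stricter filter to -3.47 in CD4 T-like and 2.07 in cDC1-like cells. The cause was not tested. Without each library in turn the level ran from 14550 to 16006 CPM for Ccl5, 681 to 744 for Cxcl16, 618 to 647 for Ccr1, 1067 to 1122 for Ccr2 and 174 to 201 for Cxcr6, and stayed at 2279.7 for Ccl3 and 1005 for Ccl4, which rest on the saline library alone and had no value without it. No paired analysis was possible because each group is 1 library and the comparisons have no test. The basophil-like, neutrophil-like and classical monocyte-like values are limited by the number of cells, which is under 30 in most of their libraries.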
